A study of Homo sapiens with 4 samples.

Results

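The mitochondrially encoded genes were the rows of the count table whose Ensembl gene identifier, without its version, carries a GENCODE symbol that begins with MT-. They were 37 of the 60708 genes listed, namely 13 mRNA genes, 2 rRNA genes and 22 tRNA genes, and all 37 lie on chrM. The table gives 28 of them on its + strand and 9 on its - strand. The - strand genes are the mRNA gene MT-ND6 and 8 tRNA genes. Choosing the genes by symbol used no measured value.

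The counts come from TT-seq, in which newly made RNA is labeled with 4-thiouridine, fragmented, purified through the label and sequenced. HEK293 cells, which descend from human embryonic kidney, were used with an RPB1 degron, a tag on the endogenous largest subunit of RNA polymerase II (Pol II) that lets auxin trigger its loss. All 4 libraries came from degron cells that received an RPB1 plasmid by transient transfection, were given auxin 48 h later for a further 48 h and were labeled for 20 min. The plasmid encoded RPB1 with a wild-type C-terminal domain of 52 repeats in 2 libraries (52X WT) and with T4A in every repeat in the other 2 libraries (52X T4A). The expression is transient, how many cells took up the plasmid is not given in the sources used here, and every library received auxin, so the comparison is between 2 plasmids and has no library of cells that kept their own RPB1. The labels do not say whether replicates came from separate cultures, and p-values then measure only the spread between these libraries.

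The human mitochondrial genome is a small circle that is transcribed by its own polymerase, POLRMT, and not by Pol II. Transcription of the heavy strand gives a long precursor with both rRNAs, most tRNAs and all mRNAs but MT-ND6. Transcription of the light strand gives a precursor with MT-ND6 and the other tRNAs. The tRNAs lie between the mRNAs and rRNAs like punctuation marks and are cut out by RNase P and ELAC2, which also frees most mRNAs. Below, genes with the + sign in the table are called heavy-strand genes and those with the - sign light-strand genes, after the strand that serves as template.

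The libraries held 39249066 and 45605027 counts (52X WT replicates 1 and 2) and 33853507 and 33188536 counts (52X T4A replicates 1 and 2). Of the HEK293 markers, 7 of 8 had at least 10 counts in every library and NEFM had 0 to 6. The 8 markers summed to 482 and 496 normalized CPM in 52X WT and 426 and 428 in 52X T4A, while 5 markers of other cell types summed to between 1.41 and 2.71. POLR2A, the gene of RPB1, had 9640 and 8720 normalized CPM in 52X WT and 7492 and 8083 in 52X T4A (log2 fold change -0.24, edgeR quasi-likelihood adjusted p = 0.659). Its reads may include plasmid RNA and the degron acts on the protein, so they do not check the labels.

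The rRNA genes and MT-ND6 stood above the other mRNA genes per length in every library. MT-RNR1 and MT-RNR2, the small- and large-subunit rRNAs of the mitochondrial ribosome, averaged 3614 and 3569 normalized CPM per kb over the 4 libraries. Normalized CPM are counts scaled to a common library size after TMM normalization, and division by the gene length in kb makes levels comparable between genes. Among all genes of the table, MT-RNR2 and MT-RNR1 ranked 2 and 3 by summed counts.

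MT-ND6, the complex I subunit on the light strand, had the highest density of the 13 mRNA genes, with 884 and 813 normalized CPM per kb in 52X WT and 789 and 1079 in 52X T4A. The next were the complex IV genes MT-CO2 and MT-CO1, which encode the subunits that hold the redox centers, with means of 599 and 587. MT-ATP6, an ATP synthase subunit, followed with 543 and MT-CO3, the other mitochondrial complex IV subunit, with 524. The complex I genes MT-ND1, MT-ND2 and MT-ND4 had 512, 469 and 469, and MT-CYB, the cytochrome b of complex III, had 468. MT-ND5, the last complex I gene of the heavy strand, had 426. The shortest genes were the lowest, with 373 for MT-ND3, 311 for MT-ND4L and 166 for MT-ATP8, the small subunit of the ATP synthase. From MT-CO2 down to MT-ND5, neighbors in this order differed in the mean by less than the spread between libraries. Every mRNA gene but MT-ATP8 exceeded all 15316 tested nuclear protein-coding genes, whose median was 0.628 per kb of span, introns included. MT-ATP8 exceeded 99.99% of them.

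**Figure D1:**
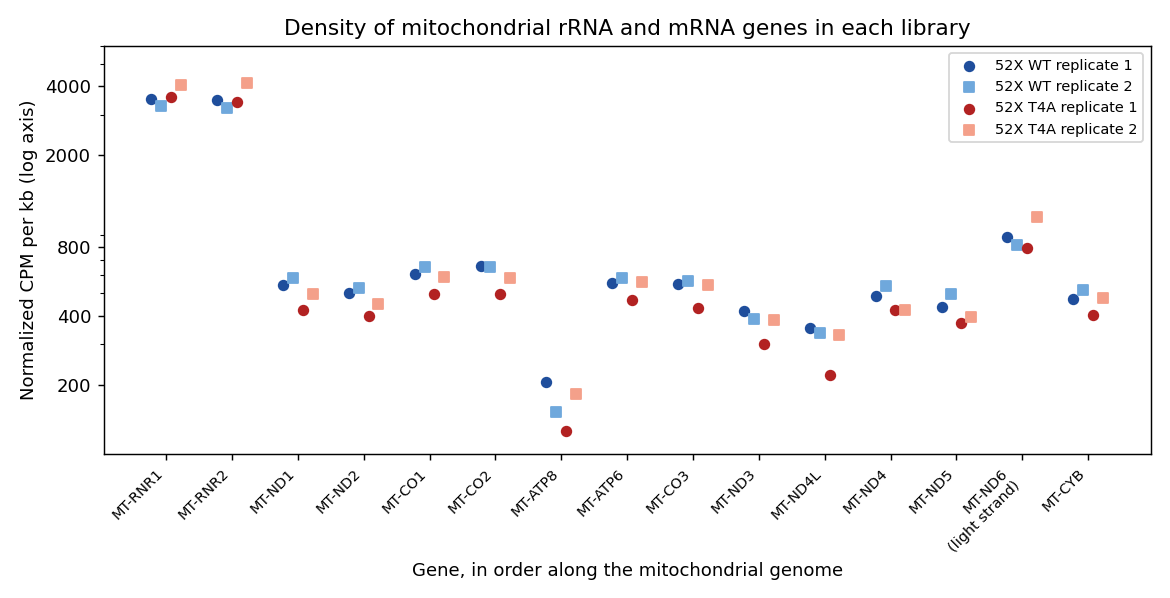
Normalized CPM per kb (log axis) of the 2 rRNA and 13 mRNA genes in the order of their position on chrM, with 1 point per library. Both rRNA genes lie highest, MT-ND6 lies above every other mRNA gene in each library, and MT-ATP8 is the lowest gene.

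The heavy- and light-strand mRNAs differ in the share of uridine, the base that 4-thiouridine replaces. The first 90 bases of MT-ND6, MT-ND5 and MT-CYB, neighbors of opposite strand, are shown for this reason from GENCODE transcripts, as DNA letters 5′ to 3′ with each T, a position where the RNA has uridine, in capitals. MT-ND6 begins at chrM:14584-14673 (- strand), MT-ND5 at chrM:12337-12426 (+ strand) and MT-CYB at chrM:14747-14836 (+ strand), in the coordinates of the table (GRCh38).
MT-ND6: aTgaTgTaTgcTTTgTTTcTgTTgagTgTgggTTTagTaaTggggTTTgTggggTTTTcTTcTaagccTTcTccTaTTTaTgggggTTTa
MT-ND5: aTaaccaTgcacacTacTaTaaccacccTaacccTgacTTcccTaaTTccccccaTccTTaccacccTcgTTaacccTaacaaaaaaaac
MT-CYB: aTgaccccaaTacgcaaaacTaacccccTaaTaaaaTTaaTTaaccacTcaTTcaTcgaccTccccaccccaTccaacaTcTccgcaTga
T makes up 46.7% of this stretch of MT-ND6, 21.1% of that of MT-ND5 and 20.0% of that of MT-CYB. Over the whole transcript uridine is 37.7% of MT-ND6, 21.7% to 30.3% of the 12 heavy-strand mRNAs (median 25.5%), and 21.5% and 22.1% of MT-RNR1 and MT-RNR2. Per 1000 uridines in place of per kb of length, MT-ND6 averaged 2363 normalized CPM over the 4 libraries and MT-CO2 2382, so these means were close. The log2 ratio of MT-ND6 to the median of the heavy-strand mRNA genes per uridine stayed positive in every library. It was 0.28 and 0.05 in 52X WT and 0.37 and 0.65 in 52X T4A. The rRNA genes stayed the highest, at 16820 for MT-RNR1 and 16177 for MT-RNR2. Among the 12 heavy-strand mRNA genes, density and percent uridine had a Spearman correlation of 0.03, density and length one of 0.33, and density and start position one of -0.49. These are descriptions across 12 genes that share libraries and neighbors.

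MT-ATP8 and MT-ATP6 share 46 bases at chrM:8527-8572, which are 22.2% of MT-ATP8, and MT-ND4L and MT-ND4 share 7 bases. The MT-ATP8 and MT-ATP6 stretch is printed because reads within it belong to both genes.
MT-ATP8 and MT-ATP6: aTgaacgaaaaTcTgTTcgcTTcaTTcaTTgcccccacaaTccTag
In the table, all 5417 nuclear genes nested in a gene of their own strand with at least 1000 counts are listed at 0, against 35.6% of the 7258 nested only in a gene of the opposite strand. Reads over 2 genes of a strand thus did not reach the counts, and the densities of the overlapping genes are lower bounds. The same holds for reads across the border of adjoining genes, as for MT-RNR1, MT-RNR2 and MT-ND3, with 0 bases to either neighbor of their strand. MT-ND6 adjoins such a neighbor on a single side and has 6634 free bases on the other. How far this shifts the order of the densities was not tested. MTATP6P1, a nuclear copy of MT-ATP6 at chr1:633696-634376 (+ strand, GRCh38), had 1475 and 1765 counts in 52X WT and 1179 and 1317 in 52X T4A, which is 10.2% of those of MT-ATP6. It differs from MT-ATP6 at 10 of 681 bases, so the split of reads between them is uncertain. All 404 nuclear copies found by symbol together held 0.333% of the counts of the 37 genes, and 287 of them were at 0. The alignments are called unique, so reads that match a copy and its source equally may be missing from both. The share does not measure that loss.

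The tRNA genes ranged from 0 to 4977 counts over the 4 libraries. MT-TP (proline), MT-TS1 (serine) and MT-TQ (glutamine), all on the light strand, had the most counts. MT-TK (lysine) and MT-TR (arginine) on the heavy strand and MT-TN (asparagine) on the light strand were at 0 in all 4 libraries. The 6 sequences show that both sets are of tRNA size and hold uridine throughout, with T in capitals as above. They lie at chrM:15956-16023, chrM:7446-7514 and chrM:4329-4400 (MT-TP, MT-TS1 and MT-TQ, - strand), at chrM:8295-8364 and chrM:10405-10469 (MT-TK and MT-TR, + strand) and at chrM:5657-5729 (MT-TN, - strand).
MT-TP: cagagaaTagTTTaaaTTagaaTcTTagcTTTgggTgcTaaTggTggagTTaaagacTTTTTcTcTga
MT-TS1: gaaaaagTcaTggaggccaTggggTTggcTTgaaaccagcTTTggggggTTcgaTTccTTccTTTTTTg
MT-TQ: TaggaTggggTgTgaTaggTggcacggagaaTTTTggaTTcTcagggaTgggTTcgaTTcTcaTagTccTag
MT-TK: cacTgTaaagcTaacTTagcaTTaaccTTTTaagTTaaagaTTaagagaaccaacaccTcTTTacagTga
MT-TR: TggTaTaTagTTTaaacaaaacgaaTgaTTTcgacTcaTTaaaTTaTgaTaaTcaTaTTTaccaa
MT-TN: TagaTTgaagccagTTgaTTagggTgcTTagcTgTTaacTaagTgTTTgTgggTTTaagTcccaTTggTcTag
T makes up 36.8%, 31.9% and 30.6% of MT-TP, MT-TS1 and MT-TQ and 28.6%, 35.4% and 37.0% of MT-TK, MT-TR and MT-TN, so the sets overlap in this share. For each tRNA gene the larger of the gaps to the next gene on its own strand was taken. A gap across the origin of the chrM numbering was counted from position 1 to the next gene only, without the bases between the last gene and the end of chrM, and is a lower bound. The 13 tRNA genes whose larger gap was under 100 bases had 0 to 437 counts over the 4 libraries (median 10, 3 at 0). The 9 tRNA genes with a larger gap of at least 100 bases had 205 to 4977 counts (median 1574). All 6 of the light-strand tRNA genes with counts above 1000 are in the second set. Over the 22 genes the Spearman correlation of gap and count was 0.83, a description across genes of the same libraries. Since reads over 2 genes of a strand did not reach the counts, a count of 0 here is no measure of how much of a tRNA was made.

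**Figure D2:**
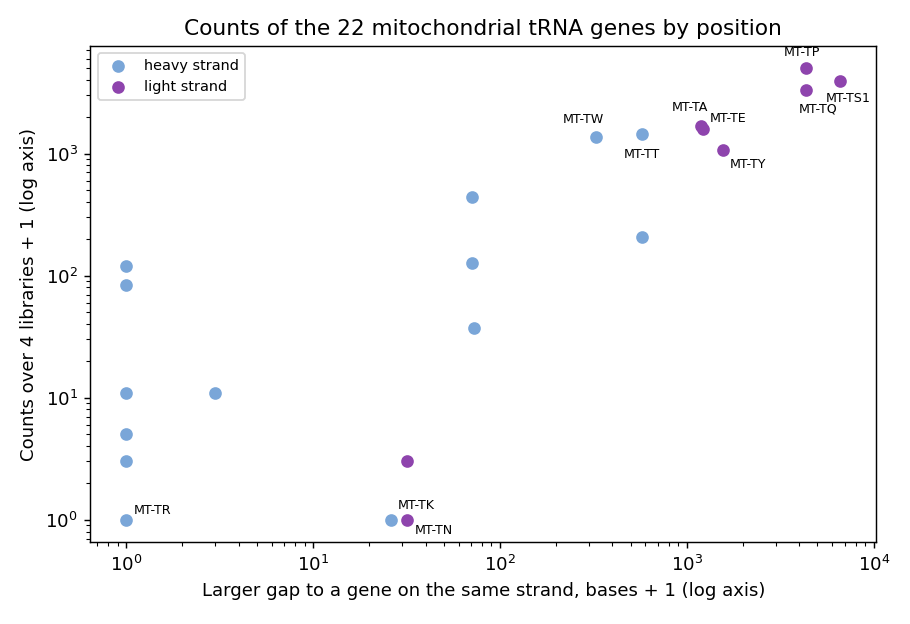
Counts of each of the 22 tRNA genes summed over the 4 libraries (plus 1, log axis) against the larger gap to a gene on its own strand (bases plus 1, log axis), with heavy- and light-strand genes in different colors. Genes with larger gaps have more counts, and the 3 genes at 0 have gaps under 100 bases.

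The study's comparison is between 52X T4A and 52X WT RPB1, of which neither makes mitochondrial RNA. The 37 genes took 1.49% and 1.42% of the counts in 52X WT and 1.37% and 1.69% in 52X T4A, values that overlap (difference 0.08 percentage points, exact permutation p = 1, two-sided). With 2 libraries against 2, the smallest p that an exact two-sided test can give is 0.333. The difference was -0.08 without 52X T4A replicate 2 and 0.24 without 52X T4A replicate 1. The rRNA genes held 58.9% and 55.9% of the mitochondrial counts in 52X WT and 63.4% and 63.7% in 52X T4A. The mRNA genes held 40.2% and 43.3% in 52X WT and 35.6% and 35.4% in 52X T4A. For both classes the groups did not overlap. The classes together hold nearly all mitochondrial counts, so the mRNA share falls where the rRNA share rises, and this is a single result. The rRNA to mRNA comparisons per length and per rRNA count below restate it. The tRNA genes held between 0.865% and 0.975% in every library, and the groups overlapped.

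Per length, the mean density of the rRNA genes was 6.99 and 6.03 times the median mRNA density in 52X WT and 8.30 and 8.58 times in 52X T4A. On the log2 scale the ratio was 2.81 and 2.59 in 52X WT (SD 0.15, n = 2) and 3.05 and 3.10 in 52X T4A (SD 0.03, n = 2), a difference of 0.38 between the means (exact permutation p = 0.333, two-sided). Both 52X T4A libraries lay above both 52X WT libraries, and the difference was larger than the SD of either group, but 2 libraries a group cannot give a smaller p. The scaling to the library does not enter this ratio.

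Each gene was also counted per 1000 summed counts of both rRNA genes, on which scale no test was run. MT-ND1 had 59.3 and 67.9 in 52X WT and 46.2 and 46.1 in 52X T4A. MT-CO1 had 106 and 123 against 87.8 and 88.1, and MT-ND4 had 76.6 and 91.2 against 66.5 and 56.6. These 3 genes were lower in both 52X T4A libraries, as were all 12 heavy-strand mRNA genes on this scale, with log2 differences from -0.52 for MT-ND4L to -0.32 for MT-ATP6 (median -0.42). Of all 23321 tested genes, 35.9% were lower and 10.9% higher in both 52X T4A libraries on this scale, and their median was -0.17. The 12 values share their rRNA denominators and are not independent. On the same scale MT-ND6 had 52.8 and 52.2 per 1000 rRNA counts in 52X WT and 47.4 and 54.8 in 52X T4A, which overlap. Of the 13 tested tRNA genes, 10 overlapped. MT-TP was higher in both 52X T4A libraries, with 3.55 and 3.22 against 4.00 and 3.98. MT-TA, with 1.38 and 1.46 against 0.872 and 1.21, and MT-TT, with 1.34 and 1.06 against 0.882 and 0.951, were lower in both.

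The density of MT-ND6 over the median density of the 12 heavy-strand mRNA genes was 1.79 and 1.52 in 52X WT and 1.91 and 2.33 in 52X T4A. The log2 ratio was 0.72 ± 0.17 in 52X WT and 1.08 ± 0.20 in 52X T4A (SD, n = 2 each), a difference of 0.36 (exact permutation p = 0.333, two-sided). The groups did not overlap, but the gap between the nearest libraries, 0.84 and 0.93, was smaller than the spread within either group. The heavy-strand mRNA genes also enter the denominator of the rRNA to mRNA ratio, so this ratio and that one are not independent. Per rRNA count, MT-ND6 differed by -0.04 (log2) between the groups. All 9 light-strand genes together held 3.81% and 3.64% of the mitochondrial counts in 52X WT and 3.83% and 4.21% in 52X T4A (difference 0.30 percentage points, exact permutation p = 0.333, two-sided). Without MT-ATP8, MT-ATP6, MT-ND4L and MT-ND4, the genes of the overlaps of 46 and 7 bases, the difference was 0.26 and the groups overlapped (exact permutation p = 0.667). With a library left out, the difference of the log2 ratio ranged from 0.21 (without 52X T4A replicate 2) to 0.50 (without 52X T4A replicate 1), and that of the light-strand share from 0.11 to 0.49, without the same libraries.

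**Figure D3:**
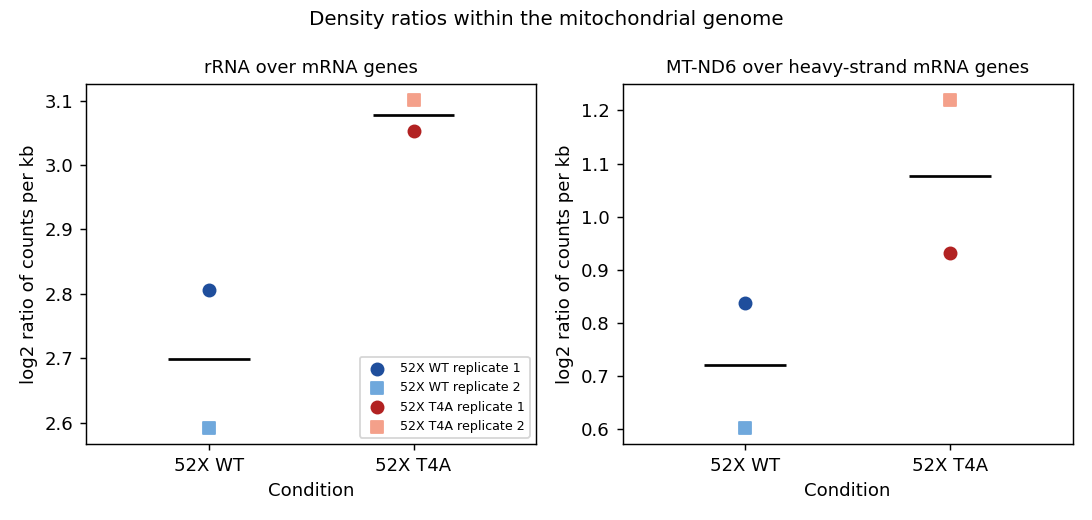
Log2 ratios of density (counts per kb) in each library, with rRNA genes over mRNA genes in the left panel and MT-ND6 over heavy-strand mRNA genes in the right panel. Each point is a library and each line the mean of 2, and the axes do not start at 0. Both 52X T4A libraries lie above both 52X WT libraries in either panel, by a wider gap for the rRNA genes. Both ratios have the heavy-strand mRNA genes in the denominator and are not independent.

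Scaled to the whole library, 28 of the 37 genes passed the filter on low counts and were among the 23321 genes tested. These were the 13 mRNA genes, both rRNA genes and 13 of the 22 tRNA genes. None of the 28 passed an adjusted p of 0.05 in edgeR's quasi-likelihood test (adjusted p from 0.246 to 0.947), where the test called 0.00429% of all genes, a count of 1. At an unadjusted p under 0.05, 4 were lower in 52X T4A (MT-ND1, MT-ND2, MT-CO2 and MT-ND4) and 1 was higher (MT-TP), or 5 of 28 in all, against 8.02% lower, 7.45% higher and 15.5% in all among the genes tested. DESeq2 called MT-ND2 (adjusted p = 0.0456) and MT-ND4 (adjusted p = 0.0257), where it called 7.87% of the genes to which it gave an adjusted p. Both 52X T4A libraries were below both 52X WT libraries for 10 of the 28, 9 heavy-strand mRNA genes and MT-TY, against 24.7% of all genes. They were above for 3, MT-RNR1, MT-TE and MT-TP, against 24.8%.

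Among the complex I genes, MT-ND1 had 521 and 556 normalized CPM in 52X WT and 404 and 476 in 52X T4A. MT-ND2 had 521 and 552 against 415 and 467, and MT-ND4 had 673 and 746 against 581 and 586. All 3 were lower in both 52X T4A libraries, with log2 fold changes of -0.29 ± 0.12, -0.28 ± 0.11 and -0.28 ± 0.12 (SE, edgeR adjusted p = 0.310, 0.301 and 0.310). MT-ND5 had 788 and 905 against 674 and 719, a log2 fold change of -0.28. MT-ND3 had 145 and 134 against 105 and 133, where the second 52X T4A library lay just below the 52X WT libraries (log2 fold change -0.23). MT-ND4L had 105 and 100 against 65.6 and 98.2 (log2 fold change -0.33), and its value rests mostly on the first 52X T4A library. MT-ND6, in the same complex, had 464 and 427 against 414 and 566. Its 52X T4A libraries lay on either side of the 52X WT libraries, and its log2 fold change was 0.14 ± 0.15 (SE, edgeR adjusted p = 0.681).

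The complex IV genes were lower in both 52X T4A libraries. MT-CO1 had 936 and 1009 normalized CPM in 52X WT and 767 and 910 in 52X T4A, MT-CO2 had 452 and 446 against 341 and 399, and MT-CO3 had 433 and 444 against 340 and 425. Their log2 fold changes were -0.21 ± 0.14, -0.28 ± 0.11 and -0.20 ± 0.13 (SE, edgeR adjusted p = 0.475, 0.305 and 0.471). The remaining heavy-strand mRNA genes overlapped between groups. MT-CYB had 539 and 588 against 462 and 546, MT-ATP6 had 378 and 398 against 320 and 382, and MT-ATP8 had 42.6 and 31.4 against 26.0 and 37.9. Their log2 fold changes were -0.16, -0.14 and -0.21. Over the 12 heavy-strand mRNA genes the median log2 fold change was -0.25, with a range of -0.33 to -0.14, where the median of all genes tested was -0.00076. The 2 52X T4A libraries differed in this respect, and over all genes tested they also agreed less than the 52X WT libraries. Their log2 CPM correlation was 0.979, against 0.991 for the 52X WT libraries. From the mean of 52X WT, the median of the 12 genes was -0.37 in 52X T4A replicate 1 and -0.08 in replicate 2 (log2), and without replicate 1 the median fold change was -0.07.

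MT-RNR1 had 3346 and 3147 normalized CPM in 52X WT and 3427 and 3873 in 52X T4A. MT-RNR2 had 5439 and 5037 against 5316 and 6467. Only MT-RNR1 was higher in both 52X T4A libraries, and both genes had a log2 fold change of 0.17 (SE 0.19 and 0.22, edgeR adjusted p = 0.681 and 0.735). Replicate 2 of 52X T4A was the highest library for both rRNA genes and MT-ND6. The heavy-strand mRNA genes thus stood low against the rRNA genes in both 52X T4A libraries, while against the whole library they stood low mostly in replicate 1 and the rRNA genes stood high mostly in replicate 2.

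Among the tRNA genes, MT-TP had 31.2 and 26.3 normalized CPM in 52X WT and 35.0 and 41.2 in 52X T4A. It was higher in both 52X T4A libraries and had the lowest adjusted p of the 28 genes (log2 fold change 0.41 ± 0.13 SE, edgeR adjusted p = 0.246). MT-TE, the glutamate tRNA next to MT-ND6, had 9.20 and 9.46 against 12.8 and 10.6 (log2 fold change 0.33, edgeR adjusted p = 0.368). The other light-strand tRNA genes tested had values of -0.26 for MT-TA, -0.05 for MT-TY, -0.03 for MT-TS1 and 0.10 for MT-TQ. The 6 light-strand tRNA genes had a median of 0.03, and the 7 heavy-strand tRNA genes tested one of -0.27, all 7 negative with groups that overlap. Without 52X WT replicate 1, 6 of the 7 were positive and their median was 0.40. MT-TH, the histidine tRNA, had the lowest value, -1.79 ± 0.90 (SE, edgeR adjusted p = 0.374), from 58 and 8 counts in 52X WT and 10 and 6 in 52X T4A. In 52X WT replicate 1, the highest library for MT-TH, the genes MT-TF, MT-TV and MT-TM also had their highest values, with 85, 62 and 63 counts, and they had at most 42, 30 and 28 in any other library.

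**Figure D4:**
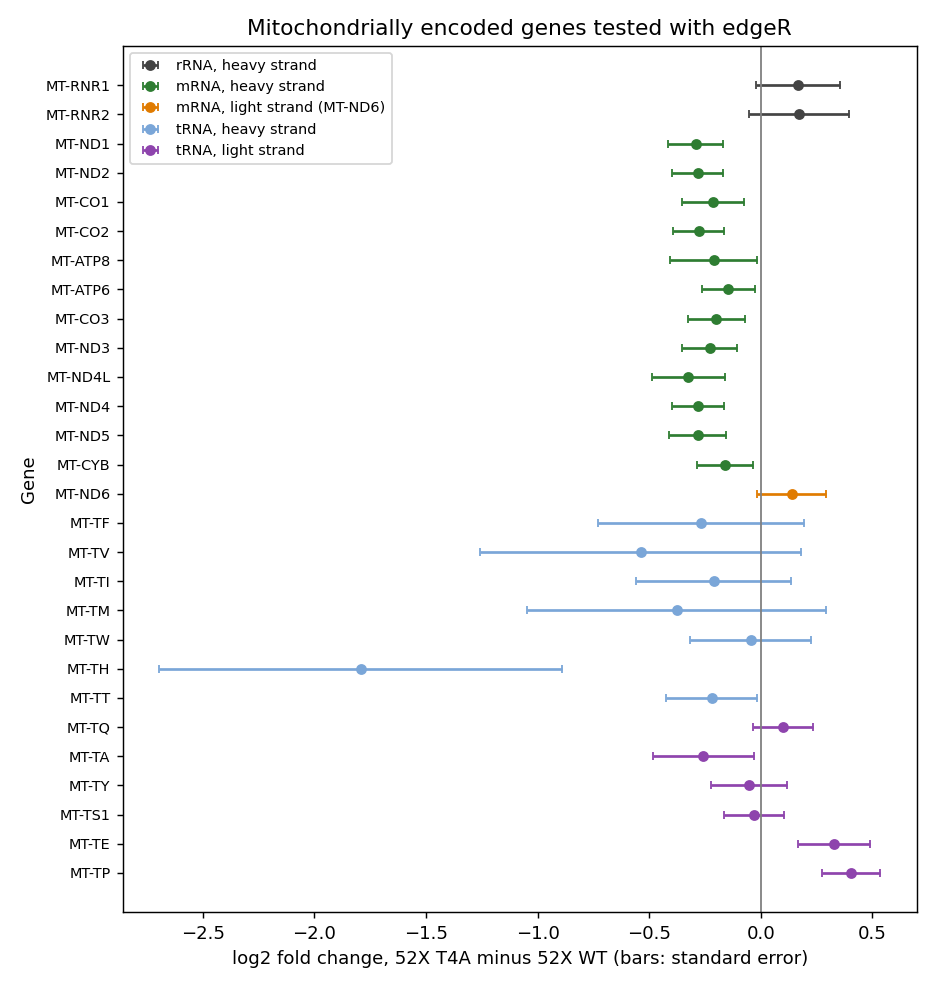
Log2 fold change (52X T4A minus 52X WT) with its standard error for the 28 tested genes, grouped by RNA class and strand. The 12 heavy-strand mRNA genes lie between -0.33 and -0.14, both rRNA genes and MT-ND6 lie above 0, and tRNA genes with few counts have wide errors.

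Nuclear genes for mitochondrial RNA synthesis and handling were listed as 46 genes for the transcription machinery, replication of the mitochondrial genome, RNA processing, and RNA stability and decay. Of these, 43 were tested and 0 passed an adjusted p of 0.05 in edgeR, with 2 lower and 1 higher at an unadjusted p under 0.05, where the shares of all genes were 0.00429%, 8.02% and 7.45%. Both 52X T4A libraries were below both 52X WT libraries for 14 of the 43 and above for 7, against 24.7% and 24.8% of all genes. Their median log2 fold change was -0.06. POLRMT, the mitochondrial RNA polymerase, had 484 and 428 counts in 52X WT and 120 and 342 in 52X T4A. In normalized CPM it was lowest in 52X T4A replicate 1, as were several genes of the same list, among them TOP1MT, FASTK, TFB1M and PTCD1. Several others of the list were highest in that library, among them TFAM, TFB2M and MGME1, described below. The list thus had no common direction in that library. After scaling, the POLRMT groups overlapped (log2 fold change -0.71 ± 0.39 SE, edgeR adjusted p = 0.402). What part POLRMT had in the mitochondrial values was not tested.

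The initiation factors TFAM, which bends the promoter DNA, and TFB2M, which melts it, were higher in both 52X T4A libraries. TFAM had 84.0 and 94.4 normalized CPM against 106 and 98.9 (log2 fold change 0.20, edgeR adjusted p = 0.358) and TFB2M had 27.5 and 28.6 against 38.5 and 29.9 (0.29, edgeR adjusted p = 0.357). TEFM, the elongation factor, had 14.3 and 16.4 against 13.9 and 13.8 (-0.15, edgeR adjusted p = 0.615). The genes past an unadjusted p of 0.05 were TFB1M, which methylates the small-subunit rRNA (-0.34, edgeR adjusted p = 0.218), PTCD1, a pentatricopeptide repeat protein of the mitochondrial matrix (-0.51, edgeR adjusted p = 0.290), and MGME1, an exonuclease that maintains mitochondrial DNA (0.28, edgeR adjusted p = 0.247). RNASEH1, FASTKD5 and MRM2 were listed at 0 and not tested. Whether they overlap another gene of their strand, which could also give 0, was not examined, so 0 is no measure of their transcription.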

How the data were processed

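TT-seq was done on 4 libraries of HEK293 RPB1 degron cells, 2 with 52X WT and 2 with 52X T4A RPB1. The authors deposited a featureCounts table of raw counts per gene over the whole gene span, introns included, from alignments that its column names call unique. The submitters' processing notes name cutadapt 4.6, STAR 2.7.11b, Picard, deepTools 3.5.6 and GRCh38. Strand and multi-mapping settings are not given in the sources used here. Of counts from 1 to 8, 85.4% were even, so mates of a pair were apparently counted separately.

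Symbols of 58742 genes and all printed sequences came from GENCODE 44 lifted to GRCh37, matched by stable identifier; for all 37 mitochondrial genes its chrM positions and strands equal those of the table. Tests used edgeR 4.0.16 in R 4.3.3 with TMM (factors 0.967 to 1.04), its default filter and quasi-likelihood F tests, with p-values adjusted by Benjamini-Hochberg over 23321 genes. Values per library were compared by exact permutation. DESeq2 1.42.0, other scalings and filters, a replicate block and left-out libraries were alternatives. The code was tested on simulated data.

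All mRNA and rRNA genes were named, and tRNA genes where highest or lowest of their strand or past an unadjusted p of 0.05. Of the nuclear list, POLRMT, TFAM, TFB2M and TEFM were named, and others past an unadjusted p of 0.05 with groups that do not overlap. Other genes named, and the comparisons per rRNA count and per uridine, were chosen after their values were seen. Genes and lists were chosen with earlier results of these data known. PECAM1, a marker of another cell type, was not analysed here.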

Additional observations from a re-analysis of the deposited data

How the results depend on the processing

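With 2 libraries a group, calls depended on the setting. The number of genes past an adjusted p of 0.05, 1 in edgeR, was 910 in DESeq2, 150 with no filter on low counts, 533 with the replicate number as a block and 2 with a gene length trend removed, and 0 to 3466 with a library left out. The block called 0 of the 28 mitochondrial genes tested. With a library left out, calls changed widely, and some mitochondrial genes were then called. Those calls are not counted here, because 1 group then holds 1 library. The deviations of the replicate 1 libraries from their group means correlated at 0.00498, so the numbers were not taken to pair libraries. DESeq2 called 2 of the 28 tested, and gave no adjusted p to MT-TF, MT-TV, MT-TI, MT-TM and MT-TH. It called 7.87% of the genes to which it gave an adjusted p. In fits with a library left out, the lone library of a group is assumed to vary like the other group. The 12 heavy-strand mRNA genes had log2 fold changes below 0 under every scaling, filter and test run, with medians from -0.28 to -0.20; left-out libraries gave medians from -0.38 to -0.07, with 11 of 12 below 0 without 52X T4A replicate 1 and without 52X WT replicate 1. With a library left out, the median was -0.38 to -0.0576 for the 13 mRNA genes, 0.0348 to 0.29 for the rRNA genes and -0.22 to 0.33 for the tRNA genes (-0.0779 with no filter). As summed counts over summed length, the light-strand share was 34.5% and 33.4% in 52X WT and 34.6% and 36.9% in 52X T4A, a difference of 1.80 percentage points on a larger base (exact permutation p = 0.333). Library size without TMM moved MT-TW to 0.0147 and MT-TS1 to 0.0219, and protein-coding genes alone moved MT-TS1 to 0.0037. With a library left out, log2 fold changes ranged from -0.12 to 0.35 for MT-ND6, -0.52 to 0.0436 for MT-ATP8, -0.83 to 0.58 for MT-TF, -1.31 to 1.01 for MT-TV, -0.67 to 0.40 for MT-TI, -0.0213 to 0.20 for MT-TQ, -1.15 to 1.19 for MT-TM, -0.59 to 0.35 for MT-TW, -0.68 to 0.0654 for MT-TA, -0.18 to 0.10 for MT-TS1 and -2.66 to 0.36 for MT-TH. The rRNA to mRNA ratio kept a difference of 0.27 to 0.48 with each library left out. Per uridine the difference was 0.37, but that scale divides each gene by the same number in every library and could hardly change it. The cause of these changes was not tested. Counts under 100 in tRNA genes limit what could be detected there.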
